A study of Homo sapiens with 18 samples.

Results

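JMJD4, NAXE, THAP7, GPATCH4, YDJC, TIMM8B and TUBB are 7 genes whose readthrough reads were plentiful in untreated K562 cells and nearly gone after hyperosmotic shock with KCl. They were selected on their readthrough reads per library read in CTRL and KCl, among the 13051 transcripts of the table (1 transcript per gene). Their levels in CTRL and KCl 45min libraries are therefore described here without a test. Their summed readthrough reads came to 372 in the 3 CTRL libraries and 35 in the 3 KCl libraries. Only NAXE was at 0 in every KCl library, and the other 6 genes kept between 1 and 12 reads.

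K562 is an established line from a patient with chronic myeloid leukemia in blast crisis, and its growth depends on the Bcr-Abl1 kinase. All libraries came from this 1 line, with 3 biological replicates in each of 6 conditions. CTRL cells were untreated, KCl 45min cells received 110 mM KCl for 45 min, and JTE 1h cells received 5 µM JTE-607, an inhibitor of the CPSF73 endonuclease, for 1 h. CTRLim cells were the untreated controls of the imatinib set, and IM 1h and IM 18h cells received 1 µM imatinib, an inhibitor of Bcr-Abl1, for 1 h and 18 h. RNA still attached to chromatin was isolated and sequenced on the PacBio platform in long reads, each of which ends where RNA polymerase II stood.

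At the end of a gene the cleavage and polyadenylation complex recognizes a signal in the nascent RNA, most often the hexamer AAUAAA, and its CPSF73 subunit cuts the RNA downstream of it. Polymerase that has not been released goes on into the flanking DNA, and RNA that was not cut is called readthrough. Hyperosmotic stress is known for transcription far past the ends of many genes. In these data a readthrough read overlapped the last exon of the counted transcript and had its 3′ end more than 100 nt beyond it. Levels are given as readthrough reads per 1000000 library reads (RPM). Such a level depends on how much a gene was transcribed as well as on how often its RNA escaped cleavage, and reads in the gene bodies were not used here.

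The library totals ranged from 229855 to 1349556 reads. Readthrough reads made up 3.32% to 3.55% of CTRL libraries, 2.15% to 2.68% of KCl libraries and 3.06% to 5.40% of JTE libraries. They made up 3.79% to 4.44% of CTRLim, 4.37% to 4.40% of IM 1h and 3.68% to 3.74% of IM 18h libraries. The libraries formed a pair of sets, with 40.5% to 44.1% of raw reads mapped in CTRL, KCl and JTE and 84.3% to 91.6% in the others. Treatment was therefore tested only within a set. Among the CTRL, KCl and JTE libraries, the supplement of the study gives shorter median read lengths for CTRL replicates 1 and 2, KCl replicate 1 and JTE replicate 1. The remaining libraries of that set had longer reads, and the effect of read length was not tested. Reads of all 3 IM 1h replicates, and of CTRLim replicates 2 and 3, differed from each other by no more than sampling noise (chi-square p of 0.570, 0.0891, 0.128 and 0.0931 for the 4 pairs), although no files were identical. The other replicate pairs differed beyond it. Results that rest on these libraries are also given below with such replicates counted as 1 library. Of 13 genes typical of K562 cells, 12 were in the table and all 12 had readthrough reads, whereas of 5 markers of other cell types 1 was listed, with 1 read.

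The ends of the 7 counted transcripts define where readthrough begins, so the last 30 bases of each are shown, 5′ to 3′ on the strand of the gene, from GENCODE 44 on GRCh38. Capitals mark the hexamer AATAAA, the DNA form of the polyadenylation signal.
JMJD4: ctcactccagattggcaaaaaaaaaaaaaa
NAXE: aaacaatgaaaatggactgttagatgccaa
THAP7: ctccgtcttggggtgactcactgcaagtat
GPATCH4: taagaattgtgtaaaggacagcacaactca
YDJC: atattAATAAAataacgtgtgtctttcaaa
TIMM8B: aggaaaacatggcaaaaaaaaaaaaaaaaa
TUBB: agagccaaaAATAAAtgggaattgaaaaaa

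YDJC and TUBB held AATAAA, which ended 19 and 15 bases before their annotated ends. The other 5 held neither AATAAA nor the variant ATTAAA. Over the 12704 transcripts of the table that matched the annotation, 52.1% held AATAAA in this window, 14.8% held ATTAAA and 65.0% held at least one of them. In the last 50 bases, the same 2 of the 7 genes and 74.4% of all matched transcripts held one. The JMJD4 and TIMM8B transcripts ended in runs of 14 and 17 A, which are genomic bases and not a tail. An absent match says only that these letters were not in this window.

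The counted transcript was annotated as protein coding for only 2 of the 7 genes, NAXE and TUBB, against 77.4% of 354 other genes tested for the KCl effect and 83.9% of the whole table. JMJD4 and THAP7 were represented by transcripts with a retained intron, YDJC and TIMM8B by transcripts annotated as targets of nonsense-mediated decay, and GPATCH4 by a loss-of-function form. The genes were short. The span of the counted transcript ran from 1976 nt in YDJC to 7179 nt in GPATCH4, with a median of 2639 nt, whereas the median was 7840 nt over the 354 tested genes and 22590 nt over the table.

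In each of the 7 genes the next coding gene downstream lay on the opposite strand, no more than 5 kb from the counted end or overlapping it. This was so for 28.0% of the other tested genes and 28.9% of the table. At any distance, the next coding gene was opposite for 44.9% of the other tested genes and 49.9% of the table. JMJD4 (ENST00000485807, chr1:227730425-227734377, minus strand) overlaps SNAP47, and the point 100 nt past its end lay in a SNAP47 intron. THAP7 (ENST00000498406, chr22:20999104-21001742, minus strand) ended 72 nt from LZTR1, and the corresponding point lay in an LZTR1 exon. That of TIMM8B (ENST00000509359, chr11:112084800-112086798, minus strand) lay in an exon of NKAPD1. YDJC (ENST00000415762, chr22:21628089-21630064, minus strand) was followed by UBE2L3 at 4055 nt, and TUBB (ENST00000327892, chr6:30720352-30725422, plus strand) by FLOT1 at 2287 nt.

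NAXE and GPATCH4 share 1 locus. NAXE (ENST00000368235, chr1:156591776-156594299, plus strand) and GPATCH4 (ENST00000368232, chr1:156594301-156601479, minus strand) run toward each other, and their annotated ends, shown above, are separated by a single base. Readthrough of NAXE was counted from 156594399, which lies in the last exon of GPATCH4, and readthrough of GPATCH4 from 156594201, which lies in the last exon of NAXE. A read that overlapped several genes was assigned by the authors to the gene it covered most. The sources used here do not say whether this used strand. If it did not, reads of NAXE and GPATCH4, and likewise of THAP7, TIMM8B and JMJD4 and their opposite neighbours, cannot be told apart. GENCODE 44 also holds longer NAXE transcripts, up to 156609507, and a TUBB transcript to 30725538, so that part of what was counted as readthrough in these 2 genes falls in annotated exons of the same gene.

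The KCl and CTRL levels of JMJD4, which encodes a hydroxylase of the translation termination factor eRF1, stood farthest apart among genes with a KCl read. JMJD4 had 108, 68.2 and 34.8 RPM in CTRL replicates 1, 2 and 3 (39, 28 and 9 reads) and 0, 0 and 0.947 RPM in the KCl replicates (0, 0 and 1 read). The CTRL libraries themselves differed by a wide margin, but the lowest of them was far above every KCl library. The pooled CTRL level was 131-fold the KCl level, and with a single KCl read the 95% interval ran from 22.9 to 5257. Intervals given here cover counting error only. At the CTRL rate the KCl libraries would have held 131 JMJD4 reads.

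NAXE encodes the epimerase that repairs hydrated NAD(P)H. It had 44.4, 19.5 and 23.2 RPM in CTRL (16, 8 and 6 reads) and 0 in each KCl library. With 0 reads in 1780089 KCl library reads, the data allow a level of up to 1.69 RPM (3 reads over the 3 libraries), and the CTRL level was at least 17.3-fold higher. At the CTRL rate, 51.9 reads would have been seen.

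GPATCH4, a nucleolar protein with a G patch domain, had 41.6, 51.2 and 38.7 RPM in CTRL and 4.87, 0 and 4.74 RPM after KCl. Its 7 KCl reads fell in replicates 1 and 3, and the groups did not overlap. The CTRL level was 11.4-fold the KCl level (95% interval 5.09 to 29.8), so that KCl kept 8.80% of it, the highest share among the 7 genes in pooled reads. From mean levels it was 7.31%, below TIMM8B with 11.2% and TUBB with 7.81%.

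THAP7, a zinc finger protein with a THAP domain that represses transcription, had the highest CTRL level, with 130, 80.4 and 42.5 RPM, and 7.31, 0 and 8.53 RPM after KCl. It held 12 of the 35 KCl reads of the group, of which 9 were in replicate 3, the deepest KCl library. Its CTRL replicates were ordered like those of JMJD4, with replicate 1 highest and replicate 3 lowest. The pooled ratio was 13.1-fold (95% interval 7.15 to 26.3).

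YDJC, a member of the carbohydrate deacetylase family, had 30.5, 39.0 and 38.7 RPM in CTRL. After KCl, replicates 1 and 2 were at 0 and replicate 3 was at 3.79 RPM from 4 reads. The CTRL level was 16.0-fold that after KCl (95% interval 5.74 to 61.8).

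TIMM8B, a small chaperone that carries proteins across the mitochondrial intermembrane space, had 36.0, 41.4 and 46.4 RPM in CTRL and 2.44, 9.56 and 1.89 RPM after KCl. TUBB, a beta-tubulin of the microtubules, had 49.9, 46.3 and 50.3 RPM in CTRL and 7.31, 3.19 and 0.947 RPM after KCl. These were the genes with reads in every KCl library, and in both the CTRL replicates lay close together. The ratios were 12.1-fold (95% interval 5.12 to 34.8) for TIMM8B and 17.3-fold (6.93 to 55.5) for TUBB.

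With so few KCl reads, single libraries decided much of each share, which is given here from mean levels. TIMM8B went from 11.2% to 5.24% without KCl replicate 2, and TUBB from 7.81% to 4.23% without KCl replicate 1. Without KCl replicate 2, GPATCH4 went from 7.31% to 11.0% and THAP7 from 6.25% to 9.38%. YDJC went from 3.50% to 5.26% without KCl replicate 1 or 2. JMJD4 and YDJC were at 0 without KCl replicate 3, which held all of their KCl reads. No share exceeded 14.5% with any 1 library left out.

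**Figure D1:**
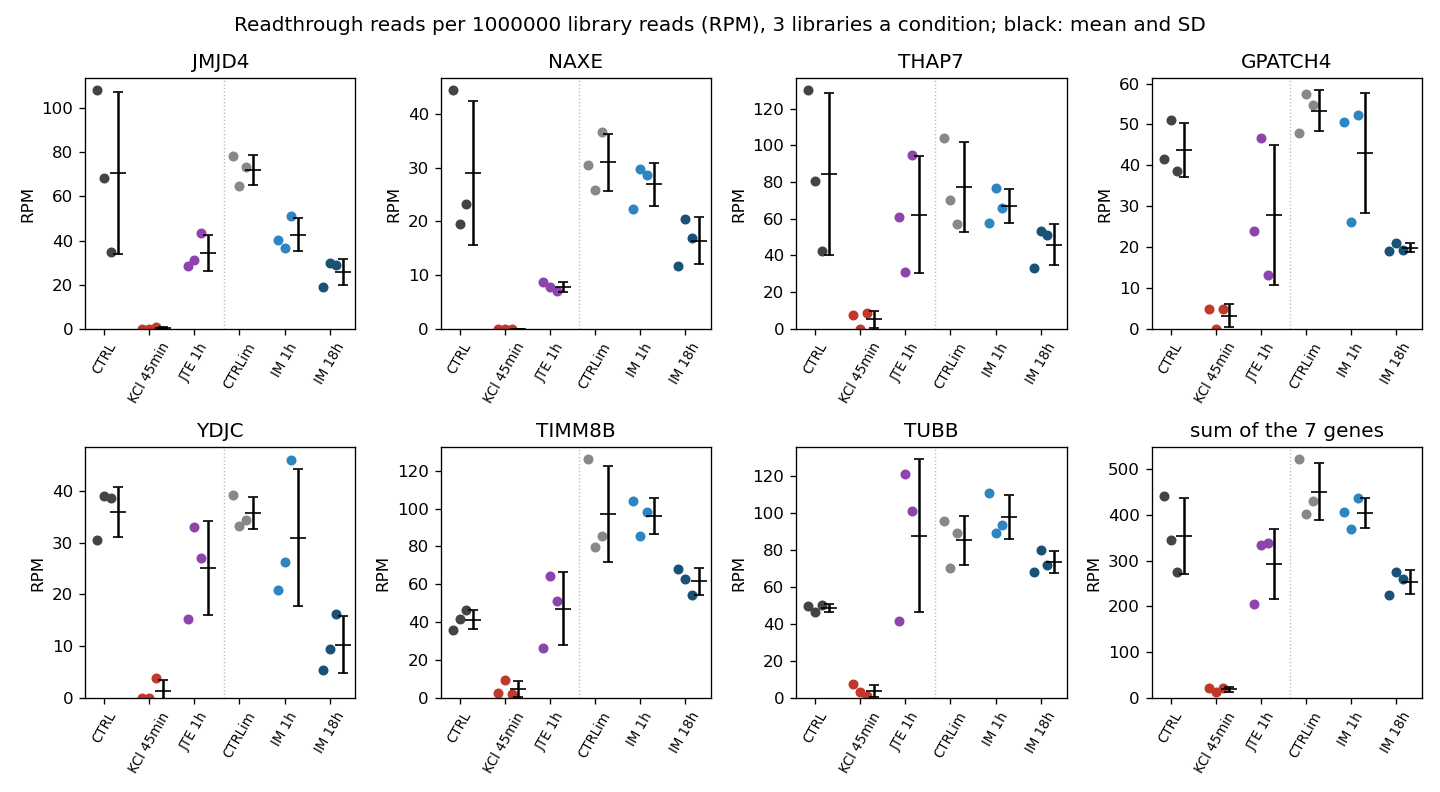
Readthrough level of each of the 7 genes and of their sum, in reads per 1000000 library reads (RPM, y axis), in the 3 libraries of each condition (x axis). Points are libraries, black bars are the mean and SD, and the dotted line parts the library sets. KCl 45min lies at or near 0 in every panel, with a summed level of 18.5 RPM against 354 RPM in CTRL.

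Summed over the 7 genes, the level was 441, 346 and 275 RPM in CTRL (354 ± 83.4, SD, n = 3) and 21.9, 12.7 and 20.8 RPM after KCl (18.5 ± 5.01, SD, n = 3). The KCl level was 5.44% of CTRL from pooled reads, an 18.4-fold ratio with a 95% interval of 13.0 to 26.8. Against CTRLim it was 4.52%, from the same 35 KCl reads by which the genes were chosen. As a share of all readthrough reads, the 7 genes held 1.05% in CTRL and 0.0779% after KCl.

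The KCl shares of other genes were spread more widely. Among the 371 other genes that reached 30 readthrough reads in the CTRL and KCl libraries together, the median KCl level was 73.1% of CTRL, with quartiles of 39.8% and 121%. In 133 of them the KCl level was above that of CTRL, and in 35 it was under 20%. Among the 7 genes the pooled share ran from 0% to 8.80%, and the share of mean levels from 0% to 11.2%. All 7 passed the minimum of 30 reads on their CTRL reads alone. Every CTRL library was above every KCl library for all 7, a pattern seen in 28.0% of tested genes (106 of 378), and edgeR called 20.9% of tested genes (79) lower and 16 higher. The direction over all genes depended on the scaling. The median log2 fold change was −0.39 per library read, 0.09 under TMM scaling and 0.11 with the readthrough total as library size. TMM scaling gave 49 lower and 27 higher calls, and the readthrough total 44 lower and 24 higher. The choice of the genes fixes their own count, and nothing is read from it.

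**Figure D2:**
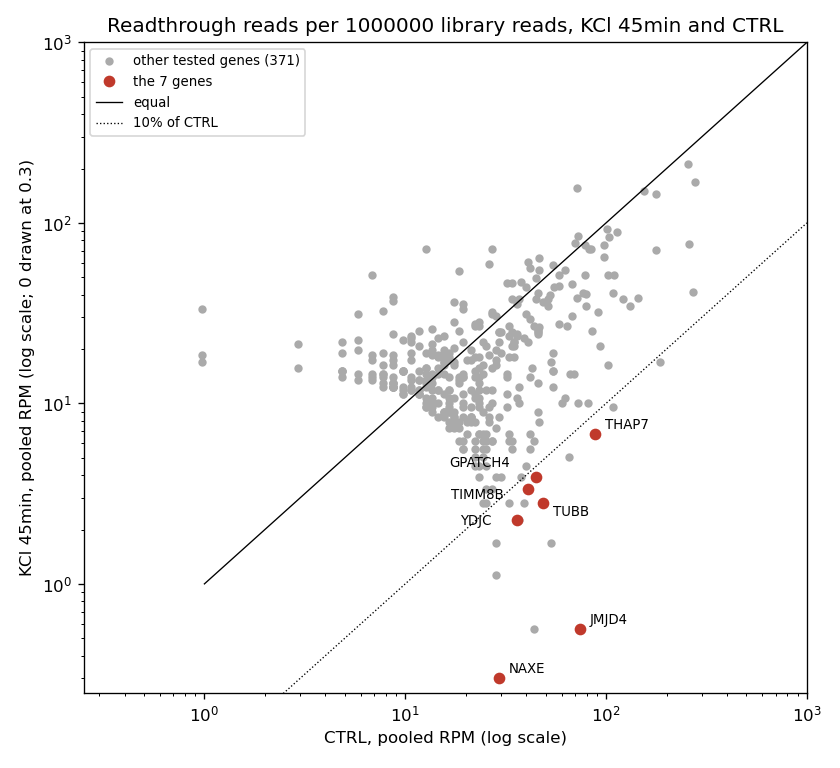
Pooled readthrough level in CTRL (x axis) and KCl 45min (y axis), in RPM on log scales, for the 378 tested genes. Each point is 1 gene, the 7 genes are red, the solid line marks equal levels and the dotted line 10% of CTRL. The 7 genes lie under the dotted line, with NAXE drawn at the lower edge because it had no KCl read.

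The 7 genes were not alone at this edge. Of 128 other genes with at least 30 CTRL reads, as many as the member with the fewest, 7 had a KCl share no higher than that of GPATCH4. The 5 lowest were CYC1 of respiratory complex III with 1.29%, the transcription factor MYC with 3.16%, the diphthamide enzyme DPH2 with 6.09%, the mitochondrial protease HTRA2 with 7.23% and the kinase PIM1 with 7.77%. CYC1 had 18, 17 and 10 CTRL reads and 0, 0 and 1 KCl reads, and MYC had 23, 22 and 10 CTRL reads and 3, 0 and 0 KCl reads. The next were GADD45A and TXNIP. In CYC1, MYC, HTRA2, PIM1, GADD45A and TXNIP too the next coding gene lay on the opposite strand, at distances not compared here. In DPH2 it lay on the same strand. UROD, a heme synthesis enzyme, was just outside with 9.04%, from 192 CTRL and 30 KCl reads.

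The share of the CTRL level that remained after KCl was lower in shorter genes. Among the tested genes outside the 7, the median KCl share was 54.4% for spans up to 4000 nt (107 genes), 59.5% up to 8000 nt (75 genes), 72.5% up to 20000 nt (74 genes) and 103% above that (98 genes). Spearman's rho between span and share was 0.290 over 354 genes, which share the same 6 libraries. Where the next coding gene lay within 5 kb on the opposite strand, the median was 54.4% (99 genes), against 81.0% elsewhere (255 genes). The 7 genes had 0% to 8.80%, but they were chosen for a low share, so nothing is read from their place below these medians.

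**Figure D3:**
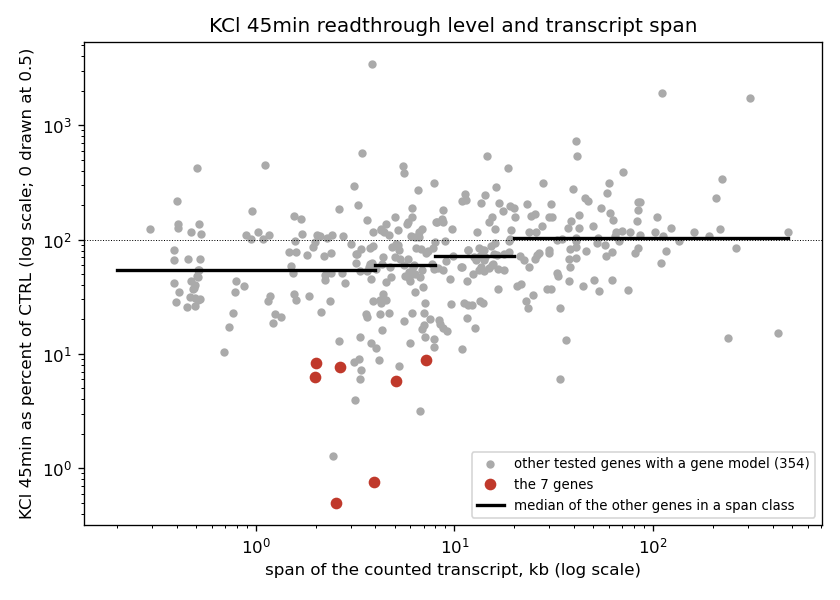
KCl 45min level as percent of CTRL (y axis, log scale) against the genomic span of the counted transcript in kb (x axis, log scale), for the 7 genes in red and 354 other tested genes in grey. Black lines are the medians of the other genes in each span class, from 54.4% for the shortest to 103% for the longest. The 7 genes, which were chosen for a low share, lie below all of them.

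With JTE-607, which blocks the cleaving enzyme directly, the pooled shares of CTRL ran from 25.9% in NAXE to 191% in TUBB. TUBB had 41.3, 121 and 101 RPM and TIMM8B 26.1, 64.2 and 51.4 RPM, or 191% and 120% of the pooled CTRL level. In both, replicate 1 was below every CTRL library and replicates 2 and 3 were above every CTRL library, so the groups overlapped. Over all genes, readthrough reads made up 3.063% of JTE replicate 1 and 5.401% and 5.053% of replicates 2 and 3. In CTRL libraries they made up 3.316% to 3.547%. THAP7 stood at 81.6% of CTRL, YDJC at 72.2%, GPATCH4 at 52.8% and JMJD4 at 50.5%, all with overlapping libraries. From mean levels GPATCH4 was at 63.7%, and at 42.2% without JTE replicate 2 or 80.6% without JTE replicate 3. THAP7 was at 73.9%, and at 101% without CTRL replicate 1. TIMM8B was at 114% and TUBB at 180% from mean levels, and per readthrough read at 84.1% and 130%. The other genes ran from 22.0% in NAXE to 59.0% in THAP7 per readthrough read. THAP7 had 60.9, 31.1 and 95.0 RPM, YDJC 15.2, 33.1 and 27.0 RPM, and GPATCH4 23.9, 46.7 and 13.1 RPM. JMJD4 had 28.3, 31.1 and 43.6 RPM, which reached above only the lowest of its CTRL libraries.

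NAXE was the member whose JTE libraries all lay below CTRL, with 8.70, 7.78 and 6.97 RPM from 4, 4 and 8 reads. Its pooled level was 25.9% of CTRL, a 3.86-fold ratio with a 95% interval of 2.04 to 7.59. Without CTRL replicate 1, the highest, the share of the mean levels was 36.6%. Over all 969 genes tested for JTE with edgeR, 1 gene (0.103%) was called, and the median log2 fold change was 0.49. In 18 of the 969 genes every JTE library lay below every CTRL library, and in 116 every JTE library lay above. The CTRL and KCl libraries chose the 7 genes, so the JTE values and their ratios to either are a description. Each of the 7 genes was lower after KCl than after JTE in every library, with ratios from 5.99-fold in GPATCH4 to 66.3-fold in JMJD4 and at least 4.48-fold in NAXE. The genes were chosen for low KCl levels, so nothing is read from this order.

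The imatinib set shares no library with the KCl contrast, and the effect of imatinib was tested with edgeR over all genes with at least 30 reads. After 1 h, none of the 7 genes was called (1 of 7 at an unadjusted p under 0.05, and none by DESeq2), beside 1.32% of 988 tested genes called lower. JMJD4 had 78.3, 64.8 and 73.1 RPM in CTRLim and 40.1, 36.6 and 51.1 RPM after 1 h, and the groups did not overlap. Its log2 fold change was −0.70 (SE 0.246) with an adjusted p of 0.162, and it was called under scaling to the readthrough total (adjusted p = 0.0207) and under TMM scaling (adjusted p = 0.0249). The range over all alternatives was 0.0207 to 0.877. The other 6 had log2 fold changes between −0.30 and 0.24.

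After 18 h of imatinib, JMJD4, GPATCH4 and YDJC fell relative to CTRLim. JMJD4 had 19.1, 29.7 and 28.9 RPM, a log2 fold change of −1.43 (SE 0.280, edgeR adjusted p = 2.49e-04). GPATCH4 fell from 47.9, 57.4 and 54.8 RPM to 19.1, 21.1 and 19.3 RPM, a log2 fold change of −1.44 (SE 0.305, edgeR adjusted p = 6.54e-04). YDJC fell from 39.2, 33.3 and 34.5 RPM to 5.32, 9.39 and 16.3 RPM, a log2 fold change of −1.69 (SE 0.383, edgeR adjusted p = 0.00141). In all 3 the groups were apart, and GPATCH4 was the one whose 18 h libraries lay closest together.

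The other 4 genes did not pass the test at 18 h. NAXE had 30.5, 25.9 and 36.6 RPM in CTRLim and 11.7, 20.4 and 17.0 RPM at 18 h (log2 fold change −0.89, edgeR adjusted p = 0.0956). THAP7 had 104, 70.4 and 56.9 RPM and then 33.0, 53.2 and 51.1 RPM (−0.66, adjusted p = 0.0956 by edgeR). TIMM8B had 126, 79.6 and 85.3 RPM and then 68.1, 62.6 and 54.1 RPM (−0.60, adjusted p = 0.0967 by edgeR). In these 3 genes too every 18 h library lay below every CTRLim library. TUBB, with 95.7, 70.4 and 89.4 RPM in CTRLim and 68.1, 79.8 and 71.9 RPM at 18 h, was the member whose groups overlapped (log2 fold change −0.19, edgeR adjusted p = 0.667).

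Thus 3 of the 7 genes were called lower at 18 h and 6 of 7 lay apart and lower, beside 8.95% (124) and 18.4% (255) of 1386 tested genes. The tested genes were not matched to the 7 in read number. NAXE and GPATCH4, whose reads may not be separable, are counted here as separate genes. The median log2 fold change was −0.89 over the 7 genes and −0.01 over all tested genes. The 3 calls held under all 14 alternatives tried, with adjusted p from 7.79e-05 to 0.00975 for JMJD4, 3.50e-04 to 0.0157 for GPATCH4 and 6.16e-04 to 0.0255 for YDJC. With indistinguishable replicates counted as 1 library, the adjusted p values were 0.00222, 0.00534 and 0.00626 in edgeR for JMJD4, GPATCH4 and YDJC.

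Between the imatinib time points, YDJC, GPATCH4, JMJD4 and TIMM8B fell. YDJC had 20.8, 26.2 and 46.1 RPM after 1 h, so that replicate 3 stood above the others, and the log2 fold change from 1 h to 18 h was −1.55 (SE 0.345, edgeR adjusted p = 3.85e-04). GPATCH4, with 50.5, 26.2 and 52.3 RPM after 1 h, had a log2 fold change of −1.14 (SE 0.271, edgeR adjusted p = 0.00105). Both calls were lost without IM 1h replicate 3, with an adjusted p of 0.0994 for YDJC and 0.0576 for GPATCH4, and under DESeq2, with 0.163 and 0.290. GPATCH4 was also not called when all 18 libraries were fitted together.

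TIMM8B had 104, 85.5 and 98.4 RPM after 1 h, and its log2 fold change was −0.65 (SE 0.175, edgeR adjusted p = 0.00374). JMJD4 changed by −0.71 (SE 0.252, edgeR adjusted p = 0.0362). On the scale of library reads the median of all 1720 tested genes was −0.30, and under TMM scaling it was −0.01. Under TMM scaling, JMJD4 (−0.41, adjusted p = 0.306 in edgeR) and TIMM8B (−0.36, adjusted p = 0.173) were no longer called, and YDJC (−1.25, adjusted p = 0.00805) and GPATCH4 (−0.84, adjusted p = 0.0277) still were. None of the 4 was called by DESeq2. The JMJD4 call held in 2 of 14 alternatives and the TIMM8B call in 9. With indistinguishable replicates counted as 1 library, YDJC and GPATCH4 were called (edgeR adjusted p = 0.00880 and 0.0251), and JMJD4 and TIMM8B were not (0.182 and 0.0853).

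NAXE had 22.3, 29.7 and 28.7 RPM after 1 h, THAP7 57.9, 76.8 and 66.0 RPM, and TUBB 111, 89.0 and 93.4 RPM. Their log2 fold changes from 1 h to 18 h were −0.68, −0.52 and −0.42, and none passed the test (edgeR adjusted p of 0.131, 0.0622 and 0.0751). THAP7 passed it only without IM 18h replicate 2, with an adjusted p of 0.0351 in edgeR. In all, 4 of the 7 genes were called lower and 7 of 7 lay apart and lower, beside 14.1% (243) and 26.3% (453) of tested genes. Here too the tested genes were not matched to the 7 in read number. The comparisons against CTRLim and against IM 1h share the IM 18h libraries and are not independent.

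**Figure D4:**
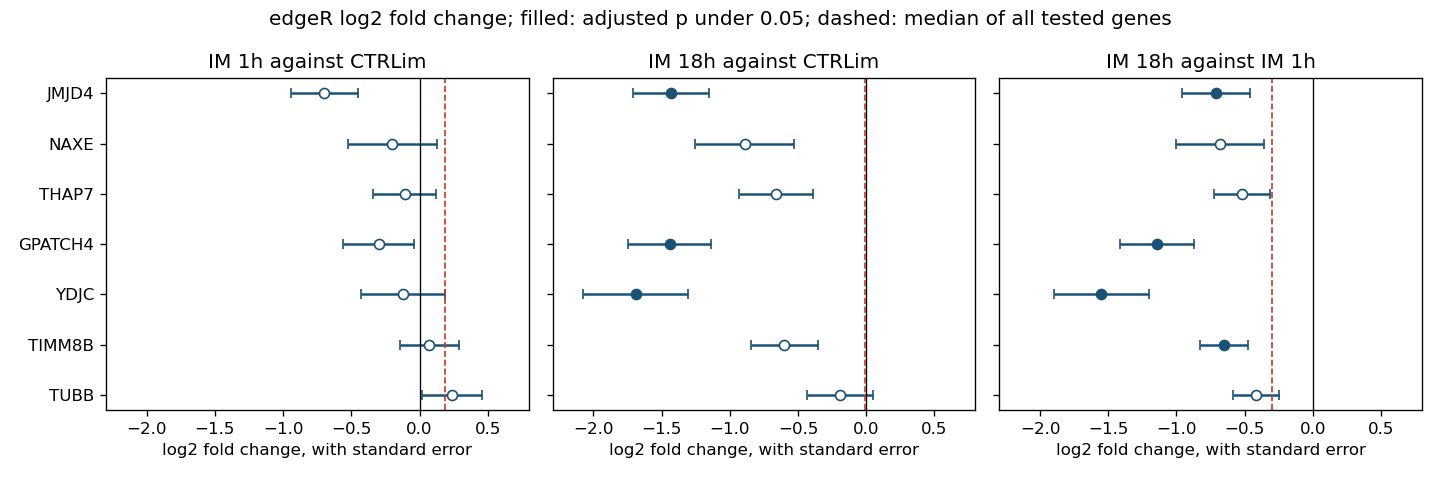
Log2 fold change of the readthrough level of each of the 7 genes (x axis, edgeR, bars are standard errors) in the 3 imatinib comparisons. Filled points have an adjusted p under 0.05, and the dashed line is the median of all tested genes. The points lie between −0.70 and 0.24 after 1 h and between −1.69 and −0.19 after 18 h against CTRLim.

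Across the 6 conditions, KCl 45min was the lowest for each of the 7 genes and lay apart from the next condition above it. Its place is a description, since the genes were chosen for low KCl levels. The condition next above KCl 45min was IM 18h for JMJD4, THAP7, GPATCH4 and YDJC, JTE 1h for NAXE, and CTRL for TIMM8B and TUBB. The highest mean was in CTRLim for JMJD4 (72.1 RPM), NAXE (31.0 RPM), GPATCH4 (53.4 RPM) and TIMM8B (97.0 RPM), in CTRL for THAP7 (84.4 RPM) and YDJC (36.0 RPM), and in IM 1h for TUBB (97.9 RPM). Among the upper conditions neighbours in the order mostly overlapped. The exceptions were IM 1h above IM 18h for NAXE and TIMM8B, IM 18h above JTE 1h for NAXE, and IM 18h above CTRL for TUBB.

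The untreated groups of the library sets did not overlap in 2 of the genes. No difference was tested, and the share of all genes that lay apart between these groups was not counted. Over all genes, readthrough reads made up a mean of 3.399% of CTRL and 4.026% of CTRLim libraries. TIMM8B had 41.3 ± 5.18 RPM in CTRL and 97.0 ± 25.4 RPM in CTRLim (SD, n = 3), and TUBB had 48.8 ± 2.20 and 85.1 ± 13.2 RPM, with no overlap in either gene. The other 5 genes overlapped between CTRL and CTRLim. What differs between the sets besides their preparation cannot be told apart here.

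Over the 18 libraries, the log2 level of each gene followed the summed level of the other 6, with Pearson's r from 0.838 for TIMM8B to 0.973 for JMJD4. This is a description, since the shared low KCl libraries, by which the genes were chosen, carry much of it. Among 905 other genes with at least 100 reads, the 5 with the profile most like the sum of the 7 were the ribosomal protein gene RPS27A (r = 0.961), UQCRFS1 of respiratory complex III (0.959), the proteasome subunit PSMB4 (0.959), MRFAP1 (0.958) and TRMT10C of mitochondrial RNase P (0.957). The median r was 0.452. RPS27A had 29.2 ± 8.43 RPM in CTRL and 0.632 ± 1.09 RPM after KCl (SD, n = 3), and UQCRFS1 had 14.2 ± 2.74 RPM and no KCl read. Spearman's rho of these 5 genes ran from 0.521 for PSMB4 to 0.866 for TRMT10C.

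Most genes within 10 kb of the 7 had too few reads to be compared with them, and no difference was tested. UBE2L3, a ubiquitin-conjugating enzyme opposite YDJC, had 27 reads in CTRL and 17 after KCl, which is 36.4% of the CTRL level (edgeR adjusted p = 0.0745). NKAPD1 opposite TIMM8B had 9 and 5 reads (32.1%), and SDHD, a subunit of succinate dehydrogenase in the same neighbourhood, had 3 and 5 (96.4%). SNAP47 at JMJD4 had 3 and 1 reads, MDC1 near TUBB had 3 and 1, and FLOT1 had 1 and 2. CCDC116, also opposite YDJC, had 1 and 5 reads (289%), and P2RX6 near THAP7 had 0 and 0. In the NAXE and GPATCH4 pair both genes were low after KCl, while in JTE 1h NAXE had 25.9% and GPATCH4 52.8% of CTRL.

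Relatives of the 7 genes were taken from lists of tubulins, mitochondrial import genes, JmjC, G patch and THAP domain genes and the NAD(P)HX repair pair. Few had enough reads for a test. After KCl, 7 relatives were tested and none was called by edgeR or DESeq2, with 1 at an unadjusted p under 0.05. Over all 378 tested genes, 25.1% were called in either direction. With JTE, 17 were tested and none was called by edgeR or DESeq2, with 0 at an unadjusted p under 0.05. The same held for the 14 tested after 1 h of imatinib, beside 1.52% of all tested genes called in either direction.

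After 18 h of imatinib, 4 of 18 tested relatives were called by edgeR and none by DESeq2, beside 14.1% (196) of all 1386 tested genes by edgeR and 79 genes by DESeq2. The alpha-tubulin gene TUBA1B fell from a mean of 89.9 RPM in CTRLim to 47.3 RPM (log2 fold change −0.87, SE 0.270, edgeR adjusted p = 0.0220). In the mitochondrial import list, the matrix chaperone HSPA9 fell by 1.44 on the log2 scale (SE 0.394, edgeR adjusted p = 0.00854) and the receptor TOMM22 fell by 1.34 (SE 0.399, edgeR adjusted p = 0.0166), 2 of the 8 tested. In the JmjC list, the histone demethylase KDM7A rose, from 0 reads in every CTRLim library to 8, 11 and 13 reads (edgeR adjusted p = 0.00243). Between the time points 4 of 21 relatives fell by edgeR and none was called by DESeq2. They were TUBA1B, HSPA9, GRPEL1, a nucleotide exchange factor of the mitochondrial chaperone, and ZNF830. ZNF830 was counted as a relative through the G patch list, and whether it holds that domain was not checked. Over all genes 18.3% (315) were called in either direction and 14.1% (243) lower, so the count of relatives lay near the background. Under TMM scaling TUBA1B and ZNF830 were still called, and HSPA9 and GRPEL1 were not. In the THAP list 1 relative was tested at 18 h and in the NAD(P)HX pair none.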

How the data were processed

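The deposited table holds whole-number counts of readthrough reads for 18 libraries, neither normalized nor pooled. The authors trimmed reads with cutadapt 3.4, aligned them with minimap2 2.22 to GRCh38, collapsed duplicates with UMICollapse 1.0.0, dropped polyadenylated reads and splicing intermediates, and assigned reads to 1 transcript per gene, giving a read over several genes to the one it covered most. Whether strand was used is not given in the sources used here. RPM used the library totals after these filters, listed in the supplement of the study. They range from 229855 to 1349556, so 1 read is worth more in the shallow libraries. Gene body reads were not used here.

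Genes with at least 30 reads over the 6 libraries of a comparison were tested with edgeR 4.0.16 (glmQLFit and glmQLFTest, R 4.3.3, library totals as library sizes, Benjamini-Hochberg adjustment, threshold 0.05), checked on simulated counts. DESeq2 1.42.0 was an alternative. Folds against 0 used 3 reads over the 3 libraries, and ratio intervals are exact conditional 95% intervals. Transcripts were matched by identifier to GENCODE 44 (12704 of 13051).

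Groups came from the sample labels. The 7 genes and the gene lists were chosen with earlier results of these data known. Named besides them were neighbours within 10 kb, the 5 genes with the most similar profile (Pearson's r of log2(RPM + 1), at least 100 reads), the 5 other genes with the lowest KCl share, and called relatives. GADD45A, TXNIP and UROD were named after their values were seen. Alternatives changed the scaling, the minimum of reads, the tool, the control or the libraries fitted, dropped single libraries, or blocked on the replicate number.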

Additional observations from a re-analysis of the deposited data

Results flagged for a closer look

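For 4 of the 7 genes the level differed between the imatinib time points by the test of that difference, IM 18h against IM 1h (edgeR, Benjamini-Hochberg adjusted p in parentheses). The log2 fold change was −1.55 for YDJC (3.85e-04), −1.14 for GPATCH4 (0.00105), −0.71 for JMJD4 (0.0362) and −0.65 for TIMM8B (0.00374), and in each gene all 3 of the 18 h libraries lay below all 3 of the 1 h libraries. The median of all tested genes was −0.30 in this comparison. Of the 1720 tested genes, which were not matched to the 7 in read number, 14.1% were called lower and 26.3% lay apart and lower. None of the 4 genes was called by DESeq2, and JMJD4 and TIMM8B were not called under TMM scaling. The YDJC and GPATCH4 calls were lost without IM 1h replicate 3. The JMJD4 call held in 2 of 14 alternatives. The counts of the IM 1h replicates differed by no more than sampling noise, and JMJD4 and TIMM8B were not called with these replicates summed.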

How the results depend on the processing

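The number of genes called was 15 for IM 1h against CTRLim and changed by more than 1.5 times to 9 with no filter, 5 with all 18 libraries in 1 fit, 8 with DESeq2 and 0 with indistinguishable replicates summed, an alternative added after the data were seen (131 genes had an unadjusted p under 0.05). It was 196 for IM 18h against CTRLim, and 113 with all 18 libraries in 1 fit and 79 with DESeq2. It was 315 for IM 18h against IM 1h (72 higher, 243 lower), and 209 under TMM scaling (114 higher, 95 lower), 112 with all 18 libraries in 1 fit, 155 with replicates summed and 63 with DESeq2 (42 higher, 21 lower). It was 95 for KCl against CTRL (16 higher, 79 lower), 76 under TMM scaling (27 higher, 49 lower) and 68 with the readthrough total as library size (24 higher, 44 lower), and 256 with a minimum of 10 reads and 47 with DESeq2 (15 higher, 32 lower). It was 1 for JTE against CTRL, 30 with all 18 libraries in 1 fit, 4 with the replicate block, and 0 under TMM scaling, with the readthrough total as library size and with no filter (108 genes had an unadjusted p under 0.05, and DESeq2 called 1). Leaving out 1 library gave 9 to 23, 106 to 181, 177 to 276, 59 to 90 and 0 to 75 called genes in the order of these comparisons, with 75 without JTE replicate 1. The causes were not tested.

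The summed KCl level of the 7 genes was 5.23% of CTRL from mean levels, 7.44% per readthrough read, 4.10% with CTRLim as control, and 4.70% to 6.04% with 1 library left out. The median over the 7 genes was 6.25%, and 4.33% to 7.13% with 1 library left out. For IM 1h against CTRLim, where no member was called, the log2 fold change turned to 0.05 for THAP7 without CTRLim replicate 1, to 0.10 for YDJC without IM 1h replicate 1, and for TIMM8B from 0.07 to −0.09 under TMM scaling, −0.07 with the readthrough total, −0.05 without CTRLim replicate 2, −0.11 with DESeq2 and −0.03 with replicates summed. With 1 library left out the ranges were −0.29 to 0.05 for THAP7, −0.58 to 0.10 for YDJC and −0.05 to 0.23 for TIMM8B.

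Libraries were not treated as paired by replicate number, since in no comparison did every same-numbered pair correlate above 0.1. Over all pairs r ran from −0.0202 to 0.297. For replicates 1, 2 and 3 it was 0.297, 0.0458 and 0.202 in KCl against CTRL. In JTE against CTRL it was 0.248, −0.0127 and 0.215. Whether same-numbered libraries of that set shared an effect was not tested. The replicate block gave 10, 195, 274, 100 and 4 called genes, and of the members' calls it ended only that of JMJD4 between the time points (log2 fold change −0.72, edgeR adjusted p = 0.0517).

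Depth limits the KCl values of single genes, which rest on 12 reads or fewer each. A fall in RPM can be less transcription or fewer uncut transcripts, which the readthrough reads alone cannot tell apart. These are not the only possibilities. A read was counted only if it overlapped the last exon, and one over several genes went to the gene it covered most. How far these rules lowered the counts was not tested.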
